A study of Mus musculus with 4 samples.

Results

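The G1 cyclins, their kinases and the kinase inhibitors were described as a group of 10 genes, chosen by symbol: *Cdk6*, *Cdk4*, *Cdk2*, *Ccnd1*, *Ccnd2*, *Ccnd3*, *Ccne1*, *Ccne2*, *Cdkn1a* and *Cdkn1b*. All 10 were found among the 48526 Ensembl gene identifiers of the count data, and 9 passed the filter on low counts that left 12883 genes for testing. RNA-seq counts were compared between wild-type R1 mouse ESCs (WT, n = 2) and *Zfp296* knockout clone 2 (KO2, n = 2), made from R1 ESCs with CRISPR/Cas9 and a guide in exon 1. Per the methods, R1 ESCs were grown on gelatine, in serum with LIF and the inhibitors PD0325901, which blocks MEK, and CHIR99021, which blocks GSK3. KO2 is a single clone, so the knockout and anything else in which this clone and the WT cells differ cannot be told apart.

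Cyclins are the regulatory subunits that switch on cyclin-dependent kinases (CDKs). In G1, D-type cyclins bind CDK4 or CDK6 and E-type cyclins bind CDK2. Both kinds of complex phosphorylate the retinoblastoma protein RB, which then releases E2F transcription factors that drive genes of DNA replication. p21 (*Cdkn1a*) and p27 (*Cdkn1b*) bind these complexes and inhibit CDK2. Mouse ESCs are known for a short G1 phase, low cyclin D levels and a CDK2 activity that varies little over the cycle, and MEK signalling is a known inducer of *Ccnd1*.

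The coding stretches that carry these contacts are shown because they name the members' roles and the differences by which reads of one member are told from those of another. In the 3 kinases the capitals mark the codons of the helix that contacts the cyclin. The stretches lie within coding exons at chr5:3344514-3344564 on the plus strand for *Cdk6*, chr10:126501424-126501474 on the plus strand for *Cdk4* and chr10:128141008-128141058 on the minus strand for *Cdk2* (mm9, NCBIM37).
Cdk6: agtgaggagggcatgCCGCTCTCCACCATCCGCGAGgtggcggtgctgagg
Cdk4: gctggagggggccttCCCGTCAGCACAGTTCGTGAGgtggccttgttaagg
Cdk2: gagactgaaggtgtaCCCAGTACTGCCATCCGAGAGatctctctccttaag

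The D-type cyclins carry a short motif near the start of the protein by which they bind RB, and its codons are in capitals here. The stretches lie in coding exons at chr7:152125557-152125598 on the minus strand for *Ccnd1*, chr6:127100756-127100791 on the minus strand for *Ccnd2* and chr17:47730604-47730639 on the plus strand for *Ccnd3* (mm9).
Ccnd1: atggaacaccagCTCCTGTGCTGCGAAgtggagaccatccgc
Ccnd2: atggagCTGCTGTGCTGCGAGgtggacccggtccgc
Ccnd3: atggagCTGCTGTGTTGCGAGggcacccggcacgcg

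Both inhibitors hold a motif that docks onto the cyclin, again with its codons in capitals. It lies in coding exons at chr17:29235389-29235430 for *Cdkn1a* and chr6:134871010-134871051 for *Cdkn1b*, both on the plus strand (mm9).
Cdkn1a: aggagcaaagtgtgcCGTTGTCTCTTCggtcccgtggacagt
Cdkn1b: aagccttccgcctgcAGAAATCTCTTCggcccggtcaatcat

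Over the whole coding sequence, *Cdk6* and *Cdk4* were identical at 69.9% of 898 aligned bases, and their longest identical run was 20 bases. The longest identical run was 14 bases between *Cdk6* and *Cdk2* and 13 bases between *Cdk4* and *Cdk2*. Among the D-type cyclins it ranged from 14 bases (*Ccnd2* and *Ccnd3*) to 20 bases (*Ccnd1* and *Ccnd2*), and it was 18 bases between *Ccne1* and *Ccne2*. The longest run shared by the inhibitors was 10 bases. No pair of members was therefore a near-identical copy within the coding sequence, in which reads of one could be counted on the other over long stretches.

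Gene counts totalled 2829914 (WT replicate 1), 4334499 (WT replicate 2), 7470907 (KO2 replicate 1) and 7437294 (KO2 replicate 2), and KO2 was thus sequenced more deeply than WT. Levels are given in CPM, counts scaled to library size with edgeR's TMM factors, and 3 counts corresponded to 0.38 to 1.118 CPM. The targeted gene *Zfp296* (chr7:20162636-20166005, plus strand, mm9) had 31 and 31 counts in WT and 416 and 282 counts in KO2, a log2 fold change of 2.31 (SE 0.29, adjusted p = 4.64e-05, edgeR), which was not called when all genes with at least 1 count were tested (adjusted p = 0.0573, edgeR). A count per gene does not show a small edit in exon 1, so this value is no check of the labels, and it was higher in the libraries labelled KO2. The direction of every fold change given here therefore rests on the labels. RNA of the Y-linked genes *Ddx3y*, *Eif2s3y* and *Uty* was at 0 or 1 count in each WT library and at 723 to 2197 counts in each KO2 library, so the WT and KO2 libraries also differed in Y-linked RNA, which cannot be told apart from the knockout in this design. The summed CPM of 8 ESC markers was 5669 to 6024 in all 4 libraries, and 1 of the 8 was called, *Sox2*, with 872.8 and 806 CPM in WT and 482.8 and 489 CPM in KO2 (log2 fold change -0.79, SE 0.10, adjusted p = 7.82e-05, edgeR), a call kept in 10 of 11 alternative fits and lost with spike-in scaling (adjusted p = 0.62). Of the markers of other cell types, *T* (mesoderm), *Fgf5* (epiblast) and *Postn*, *Dcn* and *Lum* (fibroblasts) were at 0 in every library. Others of these lists had counts, such as *Otx2* (epiblast) at 45.09 to 62.62 CPM, *Tubb3* (neural) at 48.82 to 76.72 CPM, *Kdr* (mesoderm) at 5.326 to 10.16 CPM and *Pdgfrb* (fibroblasts) at 2.236 to 9.688 CPM, and no analysed marker of the neural, endoderm and trophoblast lists was at 0 in all 4 libraries.

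Of the 10 members, *Cdk6* was the only one called different between KO2 and WT, and it was lower in KO2. No other tested member passed the test, namely *Cdk4*, *Cdk2*, *Ccnd1*, *Ccnd3*, *Ccne1*, *Ccne2*, *Cdkn1a* and *Cdkn1b*, and *Ccnd2* had too few counts to be tested. One call among 9 tested members (11.1%) stands beside 726 calls among all 12883 tested genes, a background of 5.64% (quasi-likelihood test of edgeR, Benjamini-Hochberg adjusted over all tested genes, threshold 0.05), of which 2.6% were higher and 3.04% lower in KO2. With 9 genes, a single call is not a result about the group as a whole. The median log2 fold change of the tested members was 0.01, and that of all tested genes was 0.01. In bulk RNA, fewer cells that express a gene and less of its RNA per cell cannot be told apart, and this holds for every level given here.

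**Figure D1:**
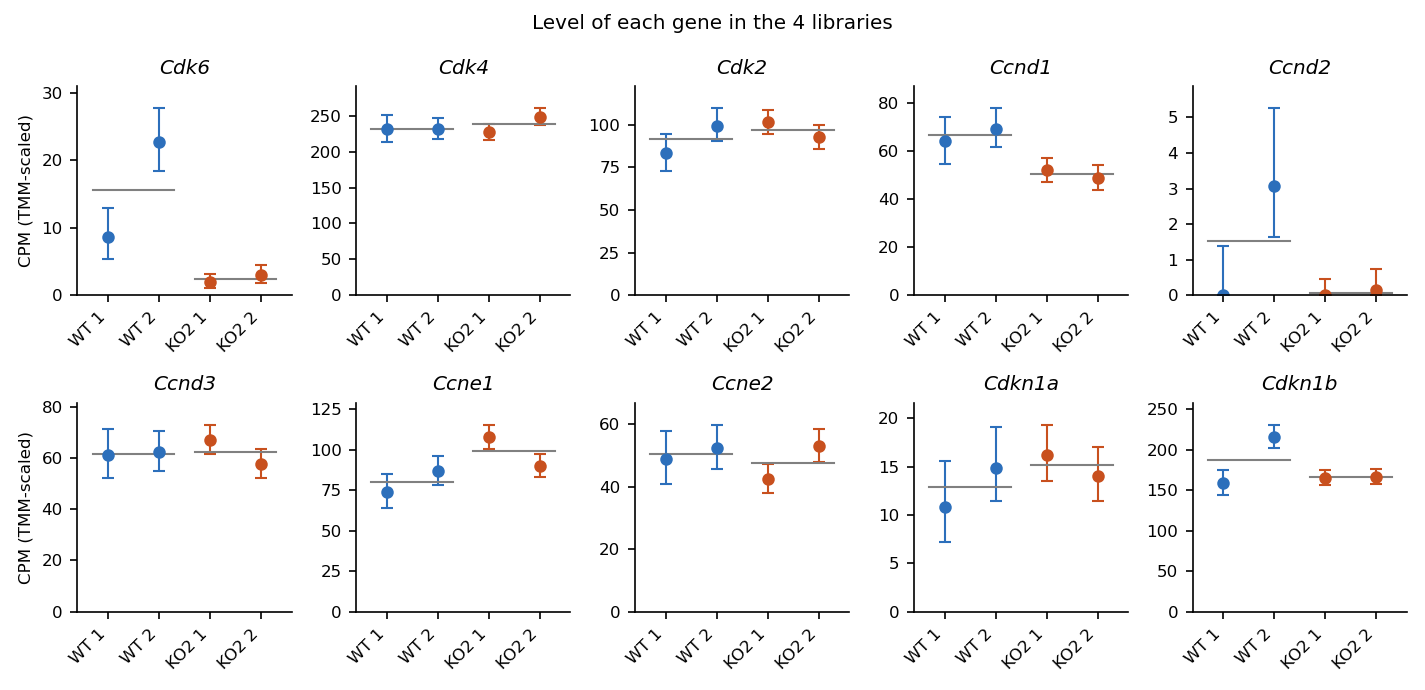
Level of each of the 10 genes in CPM (TMM-scaled counts, linear axes starting at 0) in the 2 WT (blue) and 2 KO2 (orange) libraries. Points are libraries with exact 95% Poisson intervals of their counts, which cover counting error only, and grey lines are group means. *Cdk6* is the gene whose KO2 points, at 1.902 and 2.941 CPM, lie far below both WT points, which themselves stand apart at 8.572 and 22.68 CPM.

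Among the kinases, *Cdk6* (ENSMUSG00000040274, chr5:3343893-3523218, plus strand, mm9), which pairs with D-type cyclins, had 23 and 96 counts in WT replicates 1 and 2 and 15 and 22 counts in the deeper KO2 replicates 1 and 2. These were 8.572 and 22.68 CPM in WT and 1.902 and 2.941 CPM in KO2. Both KO2 libraries lay below both WT libraries, and WT replicate 2 was the highest by far. The exact 95% Poisson intervals, which cover counting error only, were 5.434 to 12.86 and 18.37 to 27.7 CPM in WT and 1.065 to 3.137 and 1.843 to 4.452 CPM in KO2. The intervals of the WT replicates did not meet, those of the KO2 replicates did, and neither KO2 interval reached a WT interval. The group means were 15.6 ± 9.98 CPM for WT and 2.42 ± 0.734 CPM for KO2 (SD, n = 2), and the log2 fold change was -2.77 (SE 0.49, 95% interval -3.81 to -1.74, adjusted p = 0.00186, edgeR), which is a level 6.84-fold lower in KO2.

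The call of *Cdk6* rested on WT replicate 2. Without this library, the log2 fold change of *Cdk6* was -1.82 (SE 0.63) and it was no longer called (adjusted p = 0.155, edgeR), and without WT replicate 1 it was -3.22 (adjusted p = 0.00411, edgeR). In each of these fits a single WT library was left, whose spread was taken from the KO2 replicates and from other genes. The direction was the same in all 11 alternative fits, of which 9 kept the call, and the adjusted p ranged from 6.7e-06 to 0.157. The other fit without the call was the one that kept all genes with at least 1 count (adjusted p = 0.157, edgeR).

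WT replicate 2 had 2.65 times the *Cdk6* level of WT replicate 1 (95% interval 1.67 to 4.37, counting error only). Of all tested genes, 7.23% differed at least as much between the WT replicates. Among the 3322 tested genes with a mean level over the 4 libraries within 2-fold of that of *Cdk6*, 223 did so (6.71%). *Cdk6* itself averaged 15.6 CPM in WT and 2.42 CPM in KO2, so these genes were not matched to its level within either group. The spread was thus in the outer part of the range for these genes without standing outside it. *Cdk6* had been singled out beforehand for the wide difference between its WT replicates. The ratio and these shares therefore describe that difference and do not test it. The KO2 replicates differed 1.55-fold (0.767 to 3.2), and 23% of the same 3322 genes differed at least as much between them. With 15 and 22 counts in KO2, *Cdk6* was low there, so this share does not describe genes of its KO2 level. For *Cdk4*, the other kinase of the D-type cyclins, the ratio of the same WT replicates was 0.997 (0.901 to 1.1).

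Markers of other cell types were set beside this spread. The summed CPM of the 8 fibroblast markers was 3.354 in WT replicate 1, 13.23 in WT replicate 2 and 7.355 and 9.09 in the KO2 replicates. Most of it came from *Pdgfrb*, and without it the sum of the other 7 was 1.118 and 3.544 CPM in WT and 1.014 and 0.936 CPM in KO2. With and without *Pdgfrb*, the sum was thus highest in the library in which *Cdk6* was highest, and its part in the *Cdk6* values was not tested. Without *Pdgfrb* it rests on few reads, as 1.118 CPM in WT replicate 1 is 3 counts. WT replicate 2 was also the highest for the epiblast markers (63.33 CPM beside 47.7 to 62.96 CPM) and the mesoderm markers (17.01 CPM beside 7.735 to 16.58 CPM), close to a KO2 library in both. It was not the highest for the neural markers (48.82 to 78.62 CPM), and the endoderm and trophoblast sums were at most 3.677 CPM.

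**Figure D2:**
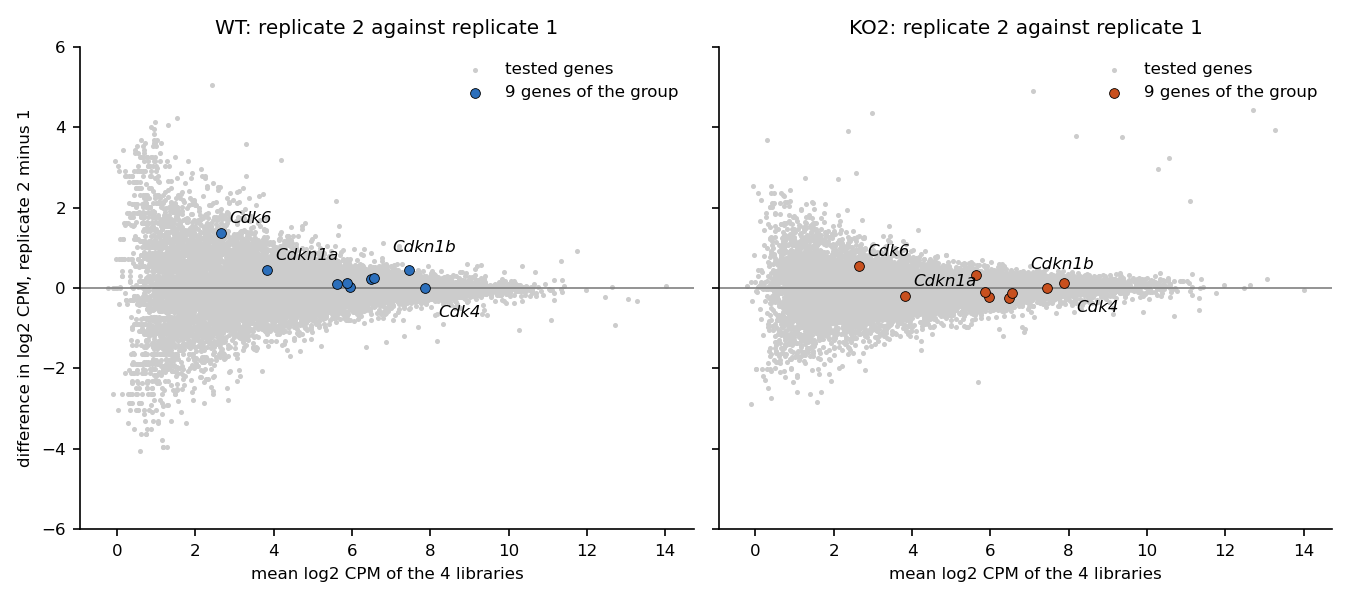
Difference between replicate 2 and replicate 1 in log2 CPM (vertical axis) against the mean log2 CPM of the 4 libraries (horizontal axis) for WT (left) and KO2 (right). Grey points are the 12883 tested genes and coloured points the 9 tested members. In WT, *Cdk6* lies high among genes of its mean level over the 4 libraries, at a difference of 1.37, while *Cdk4* lies at 0.

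*Cdk4* (ENSMUSG00000006728, chr10:126500590-126504976, plus strand), the more abundant kinase of the pair, had 232.2 and 231.6 CPM in WT and 227.5 and 248.9 CPM in KO2. All 4 libraries were close and the groups overlapped. The log2 fold change was 0.04 (SE 0.11, 95% interval -0.20 to 0.28, adjusted p = 0.899, edgeR), and larger changes in either direction lay outside the interval. *Cdk2* (ENSMUSG00000025358, chr10:128134995-128142107, minus strand), the kinase of the E-type cyclins, had 83.11 and 99.48 CPM in WT and 101.3 and 92.77 CPM in KO2. The groups overlapped, with WT replicate 1 the lowest, and the log2 fold change was 0.08 (SE 0.14, 95% interval -0.22 to 0.38, adjusted p = 0.824, edgeR).

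Set against each other within a library, which no scaling between libraries can move, *Cdk6* made up 3.56% of the summed *Cdk4* and *Cdk6* counts in WT replicate 1 (23 of 646, 95% Wilson interval 2.38 to 5.29) and 8.92% in WT replicate 2 (96 of 1076, 7.36 to 10.8). In KO2 it made up 0.829% in replicate 1 (15 of 1809, 0.503 to 1.36) and 1.17% in replicate 2 (22 of 1884, 0.772 to 1.76). Both KO2 shares were below both WT shares and their intervals did not reach those of WT. The mean share was 6.24 ± 3.79% in WT and 0.998 ± 0.239% in KO2 (SD, n = 2), a difference of -5.24 percentage points (two-sided exact permutation test, p = 0.333, the smallest p that 2 against 2 libraries can give). The difference was -7.92 percentage points without WT replicate 1 and -2.56 without WT replicate 2. Per kilobase of exon the share was 3.11% and 7.85% in WT and 0.722% and 1.02% in KO2, so *Cdk4* supplied most of the RNA of the pair in every library.

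**Figure D3:**
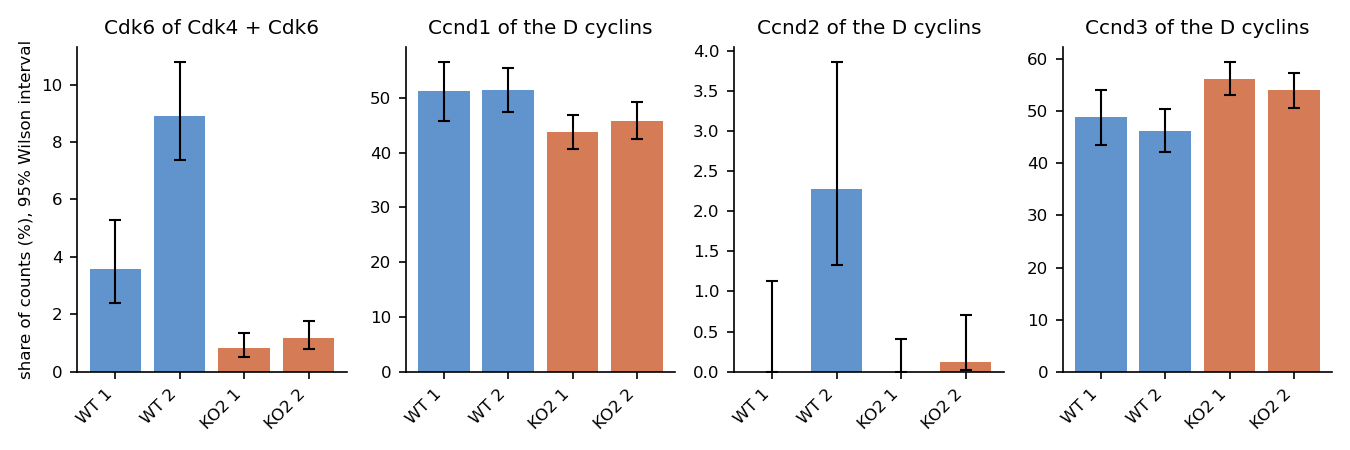
Share of a gene in the summed counts of its family in each library, in percent with 95% Wilson intervals (counting error only). The panels show *Cdk6* of *Cdk4* and *Cdk6*, and each D-type cyclin of the 3. The *Cdk6* share is 3.56% and 8.92% in WT and 0.829% and 1.17% in KO2. In both KO2 libraries the *Ccnd3* share is higher than in both WT libraries. As *Ccnd2* adds few counts, this mirrors the lower *Ccnd1* share.

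Of the D-type cyclins, *Ccnd1* (ENSMUSG00000070348, chr7:152115836-152125774, minus strand) had 172 and 294 counts in WT and 411 and 366 counts in KO2, which were 64.1 and 69.47 CPM in WT and 52.12 and 48.92 CPM in KO2. Both KO2 libraries lay below both WT libraries. The log2 fold change was -0.41 (SE 0.16, 95% interval -0.74 to -0.07), with an unadjusted p of 0.0197 that did not pass the adjustment over all genes (adjusted p = 0.159, edgeR). *Ccnd1* was called in none of the 11 alternative fits, and its log2 fold change was below 0 in each.

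*Ccnd3* (ENSMUSG00000034165, chr17:47642000-47736632, plus strand) had 61.12 and 62.38 CPM in WT and 66.96 and 57.61 CPM in KO2. The KO2 libraries lay on either side of the WT libraries, and the log2 fold change was 0.01 (SE 0.16, 95% interval -0.32 to 0.35, adjusted p = 0.981, edgeR). *Ccnd2* (ENSMUSG00000000184, chr6:127075797-127101066, minus strand), the remaining D-type cyclin, had 0 and 13 counts in WT and 0 and 1 counts in KO2. Of its 14 counts, 13 were in WT replicate 2, the library in which *Cdk6* was highest as well. The level there was 3.072 CPM, and the exact 95% Poisson interval of the count of 0 in WT replicate 1 reached up to 1.375 CPM. *Ccnd2* did not pass the filter, and no fold is given.

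Within the summed D-type cyclin counts, *Ccnd1* made up 51.2% and 51.5% in WT (of 336 and 571 counts) and 43.8% and 45.9% in KO2 (of 939 and 798 counts). The *Ccnd3* share was 48.8% and 46.2% in WT and 56.2% and 54% in KO2. *Ccnd1* was thus slightly more than *Ccnd3* in both WT libraries by counts and less in both KO2 libraries, with differences of the group means of -6.52 percentage points for *Ccnd1* and 7.6 for *Ccnd3*. The groups did not overlap for either, the Wilson intervals of *Ccnd1* were 45.9 to 56.5% and 47.4 to 55.6% in WT and 40.6 to 47% and 42.4 to 49.3% in KO2, which met in every WT and KO2 pair except WT replicate 2 and KO2 replicate 1, and the exact permutation p (two-sided) was 0.333 for both, the smallest possible. As *Ccnd2* made up 2.28% or less, a lower *Ccnd1* share is a higher *Ccnd3* share, and these are not separate differences. The log2 fold change was -0.41 for *Ccnd1* and 0.01 for *Ccnd3*, neither called, so the share of *Ccnd3* differed without a difference in its level. Per kilobase of exon, *Ccnd3* was the larger in all 4 libraries, with 61.9% and 59.7% in WT and 68.6% and 66.7% in KO2. *Ccnd2* made up 0 of 336 counts in WT replicate 1, 2.28% in WT replicate 2, 0 of 939 in KO2 replicate 1 and 0.125% in KO2 replicate 2. A count of 0 allows shares of up to 1.13% and 0.407% by the Wilson interval in these libraries, and the exact permutation p (two-sided) was 1.

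Of the E-type cyclins, the partners of CDK2, *Ccne1* (ENSMUSG00000002068, chr7:38883003-38892553, minus strand) had 73.79 and 86.72 CPM in WT and 107.9 and 90.09 CPM in KO2. Both KO2 libraries lay above both WT libraries, though KO2 replicate 2 and WT replicate 2 were close. The log2 fold change was 0.30 (SE 0.15, 95% interval -0.02 to 0.61, adjusted p = 0.289, edgeR), and it was not called in any of the 11 alternative fits. *Ccne2* (ENSMUSG00000028212, chr4:11118498-11131926, plus strand) had 48.82 and 52.46 CPM in WT and 42.35 and 53.07 CPM in KO2. The KO2 libraries were the lowest and the highest of the 4, and the log2 fold change was -0.09 (SE 0.18, 95% interval -0.46 to 0.28, adjusted p = 0.843, edgeR).

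Of the inhibitors, *Cdkn1a* (ENSMUSG00000023067, chr17:29227924-29237667, plus strand), which encodes p21 and is a known target of p53, had 29 and 63 counts in WT and 128 and 105 counts in KO2. These were 10.81 and 14.89 CPM in WT and 16.23 and 14.04 CPM in KO2, and the groups overlapped. The log2 fold change was 0.20 with a wide interval (SE 0.31, 95% interval -0.46 to 0.86, adjusted p = 0.792, edgeR). *Cdkn1b* (ENSMUSG00000003031, chr6:134870419-134875531, plus strand), which encodes p27, had 159.1 and 216 CPM in WT and 165.2 and 166.6 CPM in KO2. WT replicate 2 stood above the other 3 libraries, and the KO2 libraries lay between the WT replicates. The log2 fold change was -0.18 (SE 0.14, 95% interval -0.47 to 0.10, adjusted p = 0.511, edgeR). It was 0.06 without WT replicate 2 and -0.38 without WT replicate 1.

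*Cdkn1b* was the member whose WT replicates differed most for its level. The ratio of WT replicate 2 to 1 was 1.36 (95% interval 1.21 to 1.53, counting error only), and 4.21% of tested genes within 2-fold of its mean level differed at least as much. *Cdk6* came next in this respect with 6.71%. For the other 7 tested members the share was 29.9% to 98.2%, so their WT replicates differed no more than is common at their level. WT replicate 2 was the higher one for every tested member other than *Cdk4*, with ratios down to 1.02 for *Ccnd3*. The share of all tested genes that were higher in this library is not given here, so this is not read as a trait of the members. The interval of the ratio lay above 1 for *Cdk6*, *Cdkn1b* and *Cdk2*.

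**Figure D4:**
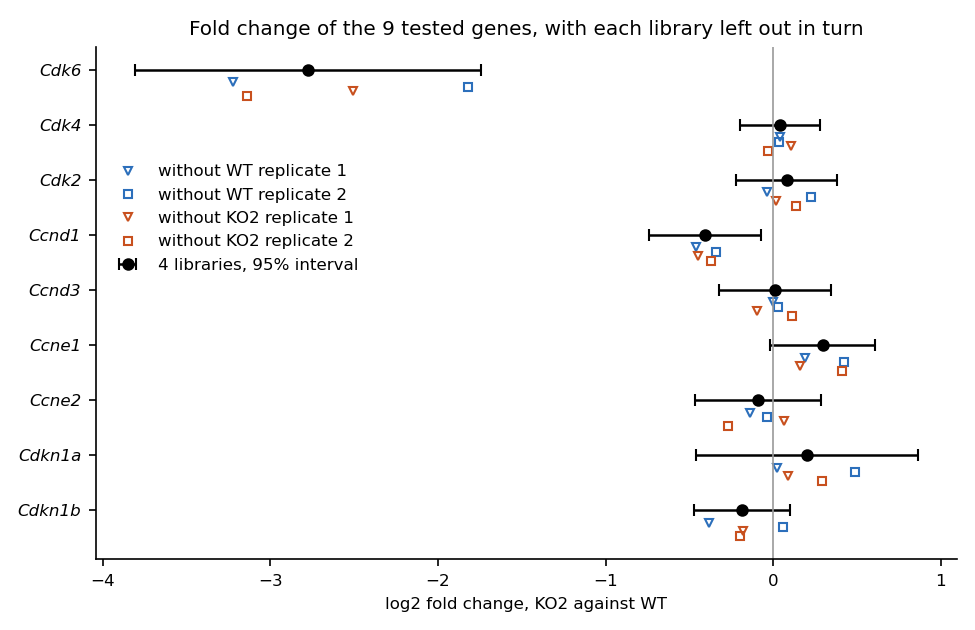
Log2 fold change of KO2 against WT for the 9 tested members. Black points with bars are the fit to all 4 libraries with 95% intervals, and open symbols are fits that leave out 1 library. *Cdk6* lies between -3.22 and -1.82 in the latter, nearest to 0 without WT replicate 2, and all other members stay within 0.5 of 0.

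Of the 9 tested members, 3 had WT and KO2 libraries that did not overlap (*Cdk6*, *Ccnd1* and *Ccne1*), beside 48.8% of all tested genes. The log2 fold changes of *Cdk6* and *Ccnd1* were below 0 and that of *Ccne1* above 0. None of the 8 tested members other than *Cdk6* was called in any alternative fit.

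Per kilobase of exon, the mean level in WT was highest for *Cdk4* (71.4 CPM per kb), followed by *Cdkn1b* (41.2), *Cdk2* (37.5), *Ccne1* (30.2), *Ccnd3* (27.4), *Ccnd1* (17.4), *Ccne2* (14.5), *Cdkn1a* (5.78), *Cdk6* (4.18) and *Ccnd2* (0.269), all in CPM per kb. Between the libraries, *Cdkn1b* overlapped *Cdk2* and *Cdkn1a* overlapped *Cdk6* in this order, while the other neighbours did not overlap, though *Ccne1* and *Ccnd3* came close (lowest and highest library 27.72 and 27.66 CPM per kb). In KO2 the order was *Cdk4* (73.3), *Cdk2* (39.9), *Ccne1* (37.2), *Cdkn1b* (36.4), *Ccnd3* (27.6), *Ccne2* (13.7), *Ccnd1* (13.2), *Cdkn1a* (6.81), *Cdk6* (0.648) and *Ccnd2* (0.0117 CPM per kb). *Ccne1* overlapped both *Cdk2* and *Cdkn1b* there, and *Ccne2* overlapped *Ccnd1*. *Cdk6* no longer overlapped *Cdkn1a*, whose KO2 libraries were at 6.31 and 7.3 CPM per kb while those of *Cdk6* were at 0.509 and 0.787 CPM per kb. These levels used the exon length of the mm9 annotation at hand (2.22 to 5.7 kb for the members), which need not be that used for counting.

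Some members share exon sequence with a gene on the opposite strand in this annotation. These were *Cdk4* with *Tspan31*, *Ccnd1* with *Oraov1*, *Ccnd3* with *Bysl* and *Ccne2* with *Ints8*, and *Cdk6* with the short gene *Gm17590*, which is not analysed here. The libraries were strand-specific, but whether the counting used the strand is not given in the sources used here, so reads in the shared stretches could have been set aside or given to either gene. *Ints8* had 385 and 663 counts in WT and 1110 and 1261 counts in KO2, more than *Ccne2* in every library, so the level of *Ccne2* is uncertain. *Bysl* had 99 and 197 counts in WT and 526 and 358 counts in KO2. *Ccnd3* had 164 and 264 counts in WT and 528 and 431 counts in KO2. The level of *Ccnd3* and its share among the D-type cyclins are thus uncertain as well. *Tspan31* and *Oraov1* had fewer counts than *Cdk4* and *Ccnd1* in every library, as *Bysl* had fewer than *Ccnd3*. The overlap was 818 bp for *Ccnd1* with *Oraov1* and 353 bp for *Ccnd3* with *Bysl*. The levels of *Cdk4* and *Ccnd1*, and the shares that use them, thus carry this uncertainty too.

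The wider pathway was described with 8 lists of 87 genes in all, of which 83 were tested. Of these, 2 were higher and 3 lower in KO2, which is 6.02% beside the background of 5.64%, with a median log2 fold change of 0.02. The calls were *E2f7* and *Cdk1* (higher) and *Skp2*, *Cul4a* and *Pola1* (lower). Each depended on the processing, with the call kept in 4 to 7 of 11 alternative fits. The share called in the lists was thus near that of all genes.

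In the RB and E2F family, 1 of 13 tested genes was called and the median log2 fold change was -0.07. This was *E2f7*, an atypical E2F that represses E2F target genes, which had 10 and 12 counts in WT and 89 and 75 counts in KO2. Both KO2 libraries (11.29 and 10.03 CPM) lay above both WT libraries (3.727 and 2.835 CPM), and the log2 fold change was 1.73 (SE 0.48, adjusted p = 0.0414, edgeR). The call was kept in 5 of 11 alternative fits, and lost without WT replicate 1 (1.90, adjusted p = 0.0999), WT replicate 2 (1.51, adjusted p = 0.171) or KO2 replicate 1 (1.65, adjusted p = 0.137, edgeR).

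Among the later cyclins and CDK1, 1 of 4 tested genes was called. *Cdk1*, the kinase of mitotic entry, had 172.5 and 142 CPM in WT and 223.2 and 220.2 CPM in KO2. Both KO2 libraries were higher than both WT libraries, and the log2 fold change was 0.50 (SE 0.12, adjusted p = 0.0232, edgeR), kept in 7 of 11 alternatives. It was 0.36 without WT replicate 2 (adjusted p = 0.176) and 0.50 without KO2 replicate 1 (adjusted p = 0.0554, edgeR), and not called in either fit.

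Of the 13 tested genes for the turnover of cyclins and inhibitors, 2 were called lower in KO2. *Skp2*, the ubiquitin ligase subunit that targets p27, had 60.37 and 77.27 CPM in WT and 48.95 and 41.84 CPM in KO2, a log2 fold change of -0.61 (SE 0.17, adjusted p = 0.044, edgeR). *Cul4a*, a cullin of the ligase that degrades p21 and CDT1, had 165.1 and 108.7 CPM in WT and 93.84 and 89.56 CPM in KO2, a log2 fold change of -0.57 (SE 0.16, adjusted p = 0.0467, edgeR). The groups did not overlap for either gene, and WT replicate 1 stood highest for *Cul4a*. They were called in 4 and 5 of 11 alternatives. *Skp2* was not called without WT replicate 1 (-0.77, adjusted p = 0.056), WT replicate 2 (-0.41, adjusted p = 0.287) or KO2 replicate 2 (-0.51, adjusted p = 0.174, edgeR), and *Cul4a* not without WT replicate 1 (-0.24, adjusted p = 0.415) or KO2 replicate 2 (-0.53, adjusted p = 0.0634, edgeR).

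Of the 20 genes of DNA replication that E2F factors drive, 1 was called and the median log2 fold change was -0.01. *Pola1*, the catalytic subunit of DNA polymerase alpha, had 398.8 and 377.4 CPM in WT and 279.6 and 307.3 CPM in KO2, a log2 fold change of -0.40 (SE 0.11, adjusted p = 0.0359, edgeR). Both KO2 libraries lay below both WT libraries, and the call was kept in 6 of 11 alternatives. It was lost without WT replicate 1 (-0.36, adjusted p = 0.179), WT replicate 2 (-0.44, adjusted p = 0.0877) or KO2 replicate 1 (-0.33, adjusted p = 0.242, edgeR).

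Of all 12883 tested genes, 2499 had an unadjusted p under 0.05 by edgeR's test, the background for such counts in a list. No gene was called in the other 4 lists by this test. These were the other CDK inhibitors (0 of 3 tested, 0 with an unadjusted p under 0.05), the CDK-activating kinase with CDC25 and WEE1 (0 of 8, 2 unadjusted), mitosis genes (0 of 12, 2 unadjusted) and regulators of the members' transcription (0 of 10, 2 unadjusted). In the first, *Cdkn2a*, which encodes p16 and ARF, had 7.081 and 8.27 CPM in WT and 10.78 and 6.951 CPM in KO2 and *Cdkn2b*, which encodes p15, had 4.845 and 1.654 CPM in WT and 1.522 and 2.406 CPM in KO2. The groups overlapped for both genes, and the counts of *Cdkn2a* do not separate its p16 and ARF transcripts.

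*Cdc25a*, the phosphatase that activates CDK2, had a log2 fold change of -0.23 (SE 0.13, adjusted p = 0.348, edgeR), and *Cdk7*, the kinase of the CDK-activating complex, one of -0.06 (SE 0.14, adjusted p = 0.861, edgeR). The proliferation markers *Mki67* and *Top2a* had 442.4 and 450.4 CPM and 1960 and 2092 CPM in WT and 437.6 and 468.9 CPM and 1767 and 2009 CPM in KO2. Their log2 fold changes were 0.02 (SE 0.10, adjusted p = 0.939, edgeR) and -0.10 (SE 0.10, adjusted p = 0.646, edgeR), and the groups overlapped for both. *Mdm4*, an inhibitor of p53, and *Klf4*, a pluripotency factor that can activate *Cdkn1a*, had log2 fold changes of 0.01 (SE 0.12, adjusted p = 0.968, edgeR) and -0.11 (SE 0.11, adjusted p = 0.661, edgeR).

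**Figure D5:**
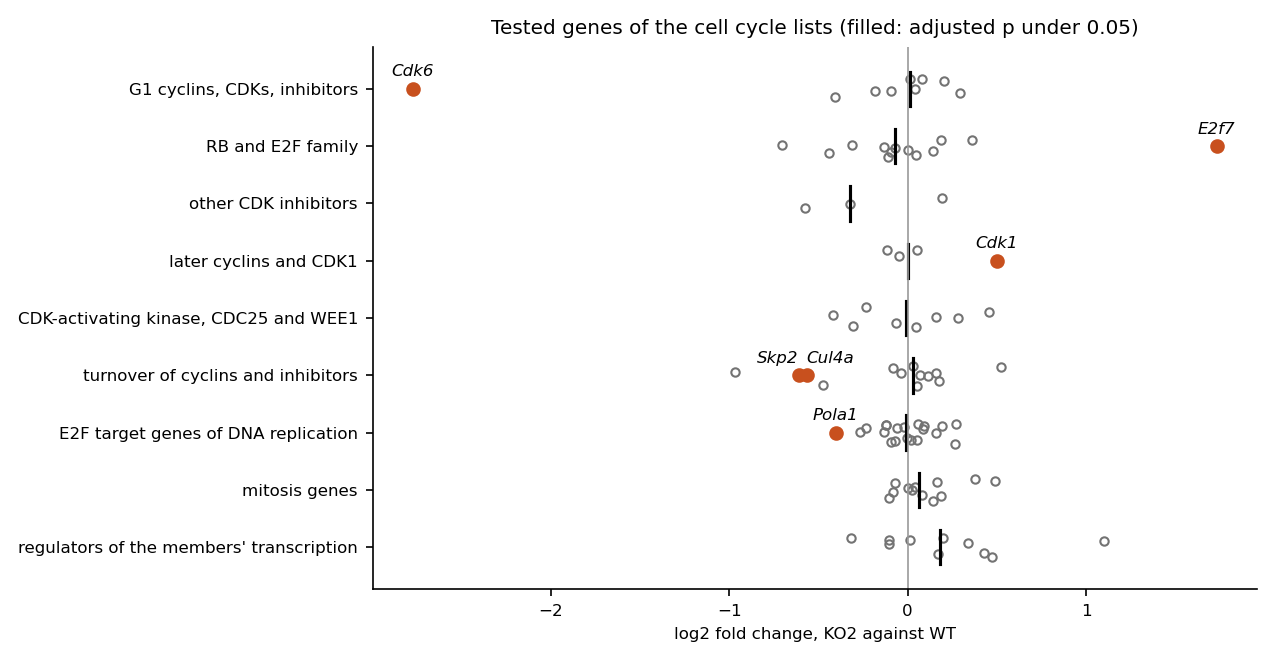
Log2 fold change of KO2 against WT for each tested gene of the 10-gene group and of the 8 cell cycle lists. Filled points have an adjusted p under 0.05 (edgeR) and are named, and bars mark each list's median. *Cdk6* at -2.77 and *E2f7* at 1.73 lie farthest from 0, and the medians lie between -0.32 and 0.18.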

How the data were processed

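Counts of 4 libraries (WT R1 ESCs and KO2, 2 replicates each, grouped by their titles) were used. According to the methods, RNA was depleted of ribosomal RNA, strand-specific libraries were sequenced, and the authors mapped reads to mm9 with HISAT2 and deposited raw HTSeq counts per gene. Versions, annotation and counting options are not given in the sources used here. The authors' processing notes also name DESeq2.

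The 92 spike-in rows and 5 summary rows were left out of the tests. Between 41.2% and 47.07% of the summed rows of a library lay on genes. Genes were filtered with filterByExpr (minimum count 10, minimum total 15), scaled with TMM, and tested with edgeR 4.0.16 (glmQLFit, glmQLFTest, R 4.3.3) with Benjamini-Hochberg adjustment. The fit was tested on simulated data. Symbols and coordinates (32782 genes), exon lengths and sequences came from the mm9 reference. The cell cycle motifs were located by translating each coding sequence.

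Members, gene lists and tests were chosen with earlier results of these data known. The text names the members, the targeted gene, called genes of each list or else its 2 most abundant tested genes, and the 5 genes whose profile was nearest to *Cdk6*. *Cdkn2d*, *Fbxo31* and *Sox1* were not analysed here. Alternatives were RLE and spike-in scaling, other filters, DESeq2 1.42.0, edgeR's older quasi-likelihood method, a block for the replicate number and leaving out each replicate. Replicates differed by more than sampling noise (chi-square per gene 5.92 in WT and 21.3 in KO2) and were counted separately. This chi-square rises with depth, so it does not rank the 2 groups. The median absolute difference in log2 CPM between replicates was 0.282 in WT and 0.204 in KO2 over the tested genes. The labels do not say whether they came from separate cultures, and p-values measure only the spread between these samples. Shares were tested with exact permutation tests (scipy 1.17.1).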

Additional observations from a re-analysis of the deposited data

How the results depend on the processing

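Leaving out 1 replicate at a time moved the log2 fold change of *Cdk6* between -3.223 and -1.82, of *Cdk4* between -0.031 and 0.106, of *Cdk2* between -0.036 and 0.224, of *Ccnd3* between -0.097 and 0.111, of *Ccne2* between -0.268 and 0.065 and of *Cdkn1b* between -0.381 and 0.06. Apart from *Cdk6*, these values near 0 changed sign in at least 1 of the 4 fits without being called in any. Members called ranged from 0 to 1, called genes of the pathway lists from 2 to 5, called genes overall from 270 to 691, and the difference in the *Ccnd2* share from -2.214 to 0.06265 percentage points. When all genes with at least 1 count were tested, *Cdk6* had a log2 fold change of -2.757 and was not called, nor was any other member (0), and 0 genes of the pathway lists and 61 overall were called. Spike-in scaling, which moved the median log2 fold change by 0.07, gave 0 and 163 (90 higher, 73 lower), and DESeq2 gave 2 and 456 (192 higher, 264 lower). The older quasi-likelihood method called 3 genes of the lists. The cause of these moves was not tested.

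With the replicate number as a block, *Cdk6* had a log2 fold change of -2.633, 8 genes of the pathway lists and 946 genes overall (470 higher, 476 lower) were called, and no other member was called. Samples of the same number did not deviate together (correlation of deviations -0.006583), so the numbers are not taken as pairs.

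Depth limits *Cdk6*, *Cdkn1a* and *Ccnd2* most, with 15 to 128 counts for the first 2 and at most 13 for *Ccnd2* in any library.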

Other observations

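The 5 tested genes whose profile over the 4 libraries was nearest to that of *Cdk6*, by the mean absolute difference of centred log2 CPM, were *Hoxc11* (0.149), *Ndufa4l2* (0.189), *Hoxa9* (0.218), *Sema5b* (0.25) and *Slfn8* (0.269). All were low. *Hoxc11*, a homeobox gene of posterior body identity, had counts of 6 and 19 (WT) and 2 and 4 (KO2), and *Hoxa9*, another homeobox gene of that kind, counts of 6 and 31 (WT) and 3 and 9 (KO2). *Ndufa4l2*, a mitochondrial protein gene induced by low oxygen, had counts of 13 and 34 (WT) and 5 and 8 (KO2). *Sema5b*, a semaphorin, had counts of 9 and 27 (WT) and 6 and 6 (KO2), and *Slfn8*, of the Schlafen family, counts of 7 and 25 (WT) and 3 and 2 (KO2). In each of them WT replicate 2 was the highest library. They were picked for this pattern, so their values are a description, without a test.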
